A study of Homo sapiens with 2 samples.

Results

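The genes described here are 10 genes of NAD metabolism, NAMPT, NMNAT1, NMNAT3, NADSYN1, NADK, NADK2, SIRT1, SIRT3, SIRT6 and PARP1, out of the 57485 genes listed in each library. They were chosen by name for what their proteins do, with earlier results of these data known, and all 10 were found under the same symbol in both libraries. The RNA came from ARP1 cells, a human multiple myeloma (MM) cell line, that carry a lentiviral hairpin against SRD5A1 under a promoter that doxycycline (Dox) switches on. There was 1 library of untreated cells and 1 library of cells given Dox, so both conditions carry the hairpin construct and differ in Dox. The genotype label of the library with Dox names SRD5A2 where its title names SRD5A1. No library of Dox-treated cells lacking the hairpin was used here, so an effect of Dox and an effect of the hairpin cannot be told apart. Whether the line is 1 clone, and the dose and time of Dox for these libraries, are not given in the sources used here.

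NAD carries electrons in energy metabolism and is also consumed as a substrate. Cells rebuild it from nicotinamide through NAMPT, the rate-limiting enzyme of the salvage route, which makes nicotinamide mononucleotide, and through the NMNAT enzymes, which join that to adenylate. PARP1 and the sirtuins split NAD and release nicotinamide, PARP1 to build ADP-ribose chains at damaged DNA and the sirtuins to remove acyl groups from proteins. PARP1 protein is also cut by caspases during apoptosis, an event that RNA levels do not measure.

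The libraries held 45918570 and 48728927 expected counts without and with Dox, and 14859 genes had at least 1 FPKM (fragments scaled by transcript length and library total) in at least 1 library and were compared. The targeted gene, SRD5A1, was at 13.04 FPKM without Dox and 25.88 FPKM with Dox, higher where the label would place the knockdown. Whether the labels are exchanged or the RNA does not reflect the knockdown was not tested, and the directions below are those of the labels. Of 8 plasma cell markers, all were above 1 FPKM in both libraries, at a summed 2398.37 and 2304.81 FPKM, but they did not move together. TNFRSF17 went from 97.72 to 203.73 FPKM and SLAMF7 from 15.73 to 41.75 FPKM, both past 2-fold, and SDC1 from 344.56 to 236.58 FPKM. Among markers of other blood cells, CD22, CD3D and CD2 had 0 counts in both libraries, CD3E was at 0.31 and 0.22 FPKM, MS4A1 at 0.1 and 0.27 FPKM, and PAX5 at 1.32 and 0.79 FPKM. The monocyte markers CD14, LYZ and CSF1R summed to 0.51 and 0.96 FPKM, and CSF1R went from 13 to 47 counts. The part of these markers in the results below was not tested. In bulk RNA, a change in the share of cells in some state and a change of RNA per cell cannot be told apart.

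All 10 genes were above 1 FPKM in both libraries. Fold changes are the log2 ratio of FPKM with Dox over FPKM without Dox after adding 0.1 to each, and the ranges in parentheses are 95% intervals from the counts (Clopper-Pearson), so they hold counting error and no other. There is no replicate behind any difference, and no test was possible. Of the 10 genes, 3 were more than 2-fold higher with Dox, namely NADK2, NMNAT1 and SIRT1, and 0 were more than 2-fold lower. Over all 14859 genes, 17.0% passed 2-fold on the higher side and 6.41% on the lower side. With 10 genes, a count of 3 cannot be set apart from that background. The median log2 ratio of the 10 genes was 0.56, beside 0.15 over all tested genes. Of the 10, 8 were above 0, beside 58.4% of all tested genes, but the intervals of NADK and NADSYN1 among them include 0. Against the median of all tested genes, 6 of the 10 were above it.

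Scaling decides 2 of these calls. With the log2 ratios centred on the median of all tested genes, or with factors from edgeR or DESeq2 in place of the authors' scaling, SIRT1 was no longer past 2-fold and PARP1 was past it on the lower side. This held for 4 of the 9 alternatives tried. The median over all tested genes was 0.15 with the deposited FPKM and -0.04 with TMM-scaled counts. The share of all changed genes that were higher with Dox went from 72.6% to 57.4% with TMM-scaled counts, 56.4% with DESeq2 size factors, 60.4% after centring and 56.0% with TMM factors on FPKM. NADK2 was past 2-fold in 9 of the 9 alternatives.

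Among the NAD-making genes, NAMPT (GRCh38, chromosome 7 from 106248285 to 106286326) was by far the most abundant. It had 13394 counts and 152.82 FPKM without Dox and 21327 counts and 224.07 FPKM with Dox, a log2 ratio of 0.55 (0.52 to 0.58). This was higher but short of 2-fold, above 69.3% of tested genes. NAMPT has a processed pseudogene on chromosome 10, NAMPTP1, listed with 778 and 1326 counts, and reads of near-identical copies may be split between them. Summing the counts of both gave a log2 ratio of 0.59 in CPM, beside 0.59 for NAMPT alone. An antisense gene at the same locus, AC007032.1, was listed with 22 and 155 counts, and whether the counting used strand is not given in the sources used here.

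NMNAT1 and NMNAT3 make NAD from the mononucleotide in the nucleus and the mitochondria, respectively. NMNAT1 (chromosome 1 from 9943428 to 9985501) was the lowest of the 10 genes, at 138 counts and 1.58 FPKM without Dox and 528 counts and 4.79 FPKM with Dox. Its log2 ratio was 1.54 (1.27 to 1.82), the widest interval of the group because it rests on the fewest counts. Its listed mean transcript length also differed, at 2150.64 and 2508.37 bases, which lowers the FPKM ratio below the log2 ratio of CPM, which was 1.81. A pseudocount of 1 FPKM brought the value to 1.17, still past 2-fold. NMNAT3 (chromosome 3 from 139560180 to 139678017) had 2426 counts and 8.2 FPKM without Dox and 4270 counts and 13.75 FPKM with Dox, a log2 ratio of 0.74 (0.67 to 0.81). Both of these NMNAT genes were thus higher with Dox. The level of NMNAT3 over that of NMNAT1 was 5.19 without Dox and 2.87 with Dox. NMNAT3 overlaps an antisense gene, AC097103.2, listed with 30 and 94 counts, and a processed pseudogene on its own strand, AC046134.1, with 5 and 21 counts. Their part in the counts of NMNAT3 was not tested.

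NADSYN1, which amidates nicotinic acid adenine dinucleotide in the last step of the routes from tryptophan and nicotinic acid, had nearly equal levels. NADSYN1 (chromosome 11 from 71453109 to 71524107) had 2359 counts and 29.95 FPKM without Dox and 2651 counts and 31.18 FPKM with Dox, and its interval of -0.02 to 0.14 around a log2 ratio of 0.06 includes 0. Its sign turned to -0.13 with TMM-scaled counts.

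The NAD kinases phosphorylate NAD to NADP, NADK in the cytosol and NADK2 in the mitochondria. NADK (chromosome 1 from 1751232 to 1780457) was at 35.25 and 35.35 FPKM, a log2 ratio of 0.00 (-0.07 to 0.08), which was -0.13 with TMM-scaled counts. NADK2 (chromosome 5 from 36192592 to 36242279) had 1643 counts and 17.39 FPKM without Dox and 6674 counts and 65.48 FPKM with Dox. Its log2 ratio of 1.91 (1.83 to 1.99) was the largest of the 10 and above 94.7% of all tested genes. The mitochondrial kinase stood below the cytosolic one without Dox, at 0.493 of its level, and above it with Dox, at 1.85 times its level. NADK2 overlaps an antisense gene, NADK2-AS1, listed with 5 and 31 counts. In level and ratio together, the 3 protein-coding genes nearest to NADK2 were DNASE2, BCL2 and MIA2, at log2 distances of 0.06, 0.14 and 0.18 over 2 libraries, which hold no more of a pattern than those 2 values.

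**Figure D1:**
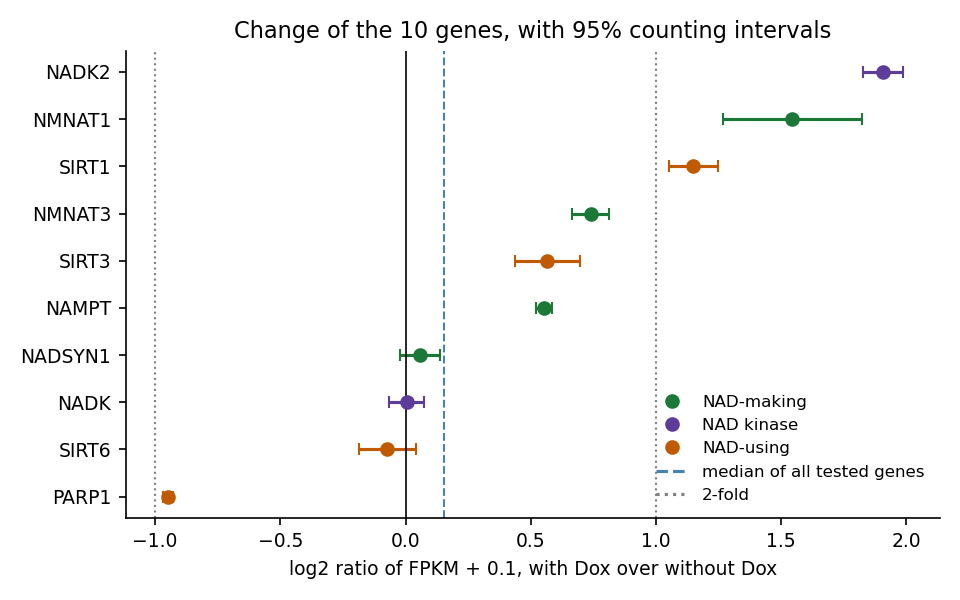
Log2 ratio of FPKM with Dox over without Dox for each gene, with 95% counting intervals, coloured by role. NADK2, NMNAT1 and SIRT1 lie above the dotted 2-fold line at 1, PARP1 lies at -0.95 just inside the line at -1, and the dashed line at 0.15 is the median of all tested genes.

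On the NAD-using side, the members did not share a direction. PARP1 (chromosome 1 from 226360691 to 226408079), the main enzyme of poly(ADP-ribose) synthesis, had 52298 counts and 374.03 FPKM without Dox and 30420 counts and 193.58 FPKM with Dox. Its log2 ratio was -0.95 (-0.97 to -0.93), 1.93-fold lower, and 7.13% of tested genes had a lower ratio. It is the most precise of the 10 values in counting terms, and it lies just short of the 2-fold line with the deposited FPKM, at -0.85 with TPM and at -1.08 with TMM-scaled counts. The pseudogenes PARP1P1 and PARP1P2 were listed with 0 counts in both libraries.

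SIRT1 (chromosome 10 from 67884669 to 67918390), the nuclear deacetylase best known for acting on p53 and FOXO proteins, went the other way. It had 1220 counts and 7.07 FPKM without Dox and 2782 counts and 15.79 FPKM with Dox, a log2 ratio of 1.15 (1.05 to 1.25). The value was 0.89 with TMM-scaled counts and 0.995 after centring, 0.88 with DESeq2 size factors and 0.94 with TMM factors on FPKM, each short of 2-fold. The level of PARP1 over that of SIRT1 was 52.9 without Dox and 12.3 with Dox. SIRT3 (chromosome 11 from 215458 to 236931), the main deacetylase of the mitochondrial matrix, had 767 counts and 14.04 FPKM without Dox and 1337 counts and 20.84 FPKM with Dox, a log2 ratio of 0.57 (0.44 to 0.70). Its start overlaps that of PSMD13 on the opposite strand, which went from 132.22 to 73.74 FPKM, against the direction of SIRT3. SIRT6 (chromosome 19 from 4174109 to 4182604), a chromatin deacetylase, was nearly level at 25.7 and 24.44 FPKM, and its log2 ratio of -0.07 (-0.19 to 0.04) turned to 0.02 with TPM.

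Set side by side, the NAD-making genes had a median log2 ratio of 0.65 over 4 genes and the NAD-using genes 0.25 over 4 genes, with ranges of 0.06 to 1.54 and -0.95 to 1.15 that overlap. The sums of FPKM differed more than the medians. NAD-making genes summed to 192.55 FPKM without Dox and 273.79 FPKM with Dox, while NAD-using genes summed to 420.84 and 254.65 FPKM. The first sum was 0.458 of the second without Dox and 1.08 times it with Dox, a change of 1.23 on the log2 scale. That change rests on PARP1, which made up 88.9% and 76.0% of the NAD-using sum. Without PARP1 the ratio of the sums was 4.11 and 4.48, a change of 0.12. Without NAMPT, which made up 79.4% and 81.8% of the NAD-making sum, the change was 1.05.

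Ordered by FPKM, the genes ran from PARP1, NAMPT, NADK and NADSYN1 through SIRT6, NADK2, SIRT3 and NMNAT3 to SIRT1 and NMNAT1 without Dox. With Dox the order was NAMPT, PARP1, NADK2, NADK, NADSYN1, SIRT6, SIRT3, SIRT1, NMNAT3 and NMNAT1. In each library, 0 of the 9 pairs of neighbours in the order had overlapping counting intervals, which leaves out the spread between cultures. Apart from the exchange at the top, the largest move was that of NADK2, from the sixth to the third place.

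The promoters of the genes past 2-fold are shown because these 3 members had the largest ratios. Each is the RefSeq window on GRCh38.p14 from 250 bases before to 50 bases after the gene's start, read 5′ to 3′ on the gene's strand. Where RefSeq has several starts, the one nearest the GENCODE start of the gene was taken. Capitals mark CACGTG, the E-box letters that MYC and CLOCK family factors can bind. The windows are chr5:36242230-36242529 on the reverse strand for NADK2, chr10:67884406-67884705 on the forward strand for SIRT1 and chr1:9943225-9943524 on the forward strand for NMNAT1.
NADK2: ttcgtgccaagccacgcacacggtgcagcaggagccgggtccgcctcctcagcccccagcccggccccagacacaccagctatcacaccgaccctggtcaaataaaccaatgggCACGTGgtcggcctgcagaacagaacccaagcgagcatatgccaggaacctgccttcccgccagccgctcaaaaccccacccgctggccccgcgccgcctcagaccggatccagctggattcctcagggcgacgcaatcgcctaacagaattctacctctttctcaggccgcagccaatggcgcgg
SIRT1: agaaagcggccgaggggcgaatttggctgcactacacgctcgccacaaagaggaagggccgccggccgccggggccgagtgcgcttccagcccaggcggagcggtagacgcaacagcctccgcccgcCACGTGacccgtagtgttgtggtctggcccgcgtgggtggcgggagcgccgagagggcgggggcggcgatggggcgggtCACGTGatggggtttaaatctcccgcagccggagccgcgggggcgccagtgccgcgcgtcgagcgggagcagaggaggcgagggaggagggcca
NMNAT1: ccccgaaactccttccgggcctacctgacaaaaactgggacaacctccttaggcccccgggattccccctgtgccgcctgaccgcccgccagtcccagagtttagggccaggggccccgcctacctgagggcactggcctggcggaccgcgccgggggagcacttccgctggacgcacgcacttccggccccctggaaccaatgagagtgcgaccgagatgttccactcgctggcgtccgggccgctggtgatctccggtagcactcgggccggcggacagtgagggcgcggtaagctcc

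The letters CACGTG, which read the same on both strands, began 136 bases before the start of NADK2 and 123 and 44 bases before the start of SIRT1. They were in the windows of 2 of the 10 genes, NADK2 and SIRT1, and in 7.26% of 35116 windows of all genes. Another RefSeq start of NADK, a gene with a log2 ratio of 0.00, also holds them, so they were not confined to the genes past 2-fold. The GC box letters GGGCGG, searched on both strands, were in 9 of the 10 windows and in 15786 of the 35116 windows of all genes. The median GC content of all windows was 58.7%. The windows of NMNAT3 and NADK were below that median, and those of the other members were above it, at 64.3% to 76.7%. The part of GC content in the 9 matches was not tested, so no excess of GC boxes is read from them. The CCAAT letters were in 3 of the 10, NMNAT1, NADK2 and SIRT6, and in 34.6% of all. The ATF4-type composite TGATGNAA and the cyclic AMP element TGACGTCA were in 0 of the 10, and in 3.62% and 1.85% of all. A match is a description of the letters and not of a bound site.

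The other genes of NAD metabolism were read from 8 lists by role. Of 57 such genes, 45 were tested, and with Dox 11 of these were past 2-fold on the higher side and 2 on the lower, with a median log2 ratio of 0.29. Their share of higher genes, 24.4%, and of lower genes, 4.44%, stand beside the 17.0% and 6.41% of all tested genes, and 4 of the 11, SIRT4, MACROD2, ADPRH and APLF, passed the filter only through the library with Dox.

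The other salvage enzymes went both ways. NMRK1, the kinase that feeds nicotinamide riboside into the pathway beside NAMPT, went from 8.1 to 23.28 FPKM, a log2 ratio of 1.51. NAPRT, the entry enzyme for nicotinic acid, went from 4.6 to 1.53 FPKM (-1.53), and PNP, a phosphorylase of purine nucleosides that also splits nicotinamide riboside, from 208.19 to 71.37 FPKM (-1.54). These are the 2 lower genes of the 45, and NAPRT rests on 196 and 68 counts. NMNAT2, NMRK2 and NNMT were listed with at most 1 count in a library.

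Of the 9 genes of the de novo route from tryptophan, 7 were below 1 FPKM in both libraries. The other 2 were AFMID, at 99.69 and 68.02 FPKM, and QPRT, at 18.32 and 16.95 FPKM. Their log2 ratios were -0.55 and -0.11. The mitochondrial NAD carrier SLC25A51 and the transhydrogenase NNT had log2 ratios of 0.17 and 0.44. In the list of enzymes that break down NAD or NADP, NOCT, an NADP phosphatase, went from 10.73 to 5.7 FPKM (-0.90), and NUDT13 and NUDT12 were at 0.47 and -0.25. CD38, the surface enzyme that hydrolyses NAD and is a target of antibodies in MM, was at 26.62 and 26.61 FPKM, and the log2 ratio of SARM1 was -0.03.

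Among the 7 sirtuins, SIRT4 and SIRT5 were also more than 2-fold higher, at log2 ratios of 2.03 and 1.21. With SIRT1 these are 3 of the 7, or 42.9%, beside 17.0% of all tested genes. A count of 3 among so few genes cannot be set apart from that background. SIRT2, the most abundant of the 7, was nearly level at 36.8 and 38.63 FPKM (0.07). SIRT4 passed the filter only through the library with Dox, at 10 and 65 counts and 0.27 and 1.41 FPKM, and was short of 2-fold with a pseudocount of 1 FPKM. SIRT5 went from 3.76 to 8.81 FPKM. SIRT7, the nucleolar sirtuin, was lower, from 20.03 to 12.99 FPKM (-0.62).

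Among the 16 other members of the PARP family, 4 were past 2-fold on the higher side with Dox and 0 on the lower, with a median log2 ratio of 0.44. These 4 are 25.0% of the list, beside 17.0% of all tested genes. With TMM-scaled counts or DESeq2 size factors, 2 were past 2-fold on the higher side, PARP8 and TNKS, and 1 on the lower, ZC3HAV1. Of all 14859 genes, 1822 and 1796 were then higher and 1354 and 1386 lower. The counts of this family cannot be set apart from that background. PARP8, PARP11 and PARP6, which add single ADP-ribose units, had log2 ratios of 1.83, 1.19 and 1.03, and TNKS, a tankyrase that builds chains, 1.25. PARP2, the closest relative of PARP1 in DNA repair, was at 23.93 and 25.45 FPKM, a log2 ratio of 0.09. ZC3HAV1 was the lowest of the 16, at -0.78, and PARP4 was also lower, from 28.5 to 20.68 FPKM (-0.46). Of the 16, 14 were above 0, beside 58.4% of all tested genes. PARP1 stood below each of the 16 with the deposited FPKM, but above ZC3HAV1 in CPM, where they were at -0.87 and -0.94, and likewise with TMM-scaled counts and DESeq2 size factors. Its share of the summed FPKM of the 17 genes was 64.9% without Dox and 38.6% with Dox. The other 16 summed to 202.67 and 307.98 FPKM.

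Of 11 genes that remove ADP-ribose or work with PARP1, 4 passed 2-fold on the higher side and 0 on the lower, but 3 of these 4, MACROD2, ADPRH and APLF, passed the filter of 1 FPKM only through the library with Dox, where they are high. Of the 8 genes at 1 FPKM or more in both libraries, 1 was past 2-fold. The 17.0% of all tested genes is over genes at 1 FPKM or more in at least 1 library, so it is not a like share. A share of all genes under the stricter filter was not computed. OARD1, a hydrolase that takes ADP-ribose off glutamate, went from 32.86 to 85.5 FPKM (1.38), and MACROD2, ADPRH and APLF had log2 ratios of 1.97, 1.28 and 1.85 from levels under 1 FPKM without Dox. HPF1, which directs PARP1 to serine residues, was listed under its older symbol C4orf27 and went from 25.19 to 47.73 FPKM (0.92), opposite to PARP1. XRCC1 was also higher (0.59). LIG3, CHD1L and ADPRHL2 were lower, as PARP1 was, at log2 ratios of -0.58, -0.50 and -0.33. Of the 11 genes, 7 were above 0, beside 58.4% of all tested genes. PARG, the main enzyme that takes the chains apart, was nearly level at 17.54 and 17.77 FPKM.

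**Figure D2:**
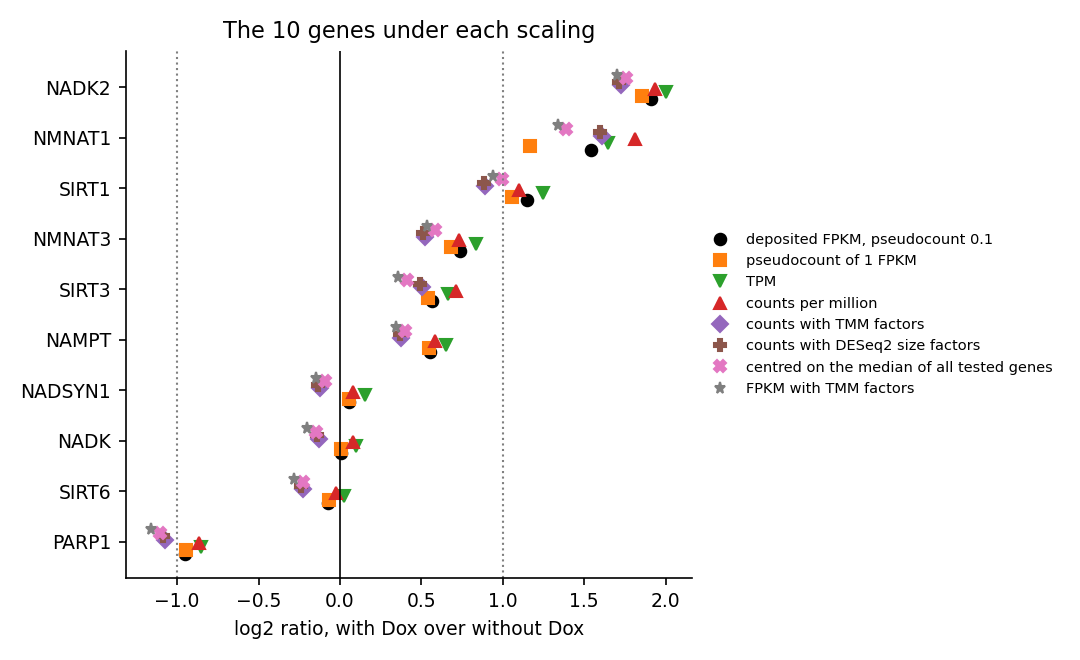
Log2 ratio of each gene with Dox over without Dox under the deposited FPKM and 7 other settings, with dotted lines at 2-fold. The order of the ratios is the same except that NAMPT and SIRT3 exchange places with a pseudocount of 1 FPKM, SIRT1 ranges from 0.88 to 1.25 and PARP1 from -1.16 to -0.85 across the other settings, and NADSYN1, NADK and SIRT6 lie on either side of 0.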

How the data were processed

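RNA of 1 untreated and 1 Dox-treated ARP1 library was sequenced. The authors deposited, per gene, expected counts (estimated fragments, 14.5% and 15.4% of them not whole), TPM, which sum to 1000000 and 999999, and FPKM, which divide counts by effective length and library total and were used here. The labels list HISAT2 2.1.0, StringTie 1.3.4d, Bowtie 0.12.2 and the build hg19 without roles. Of 204675 listed transcripts, 202888 are in GENCODE release 29, whose GRCh38 gene coordinates are given.

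With 1 library per condition edgeR, the tool of the study, cannot estimate dispersion, so its fold limit was kept without its test. Genes with at least 1 FPKM in 1 library were compared with a pseudocount of 0.1 FPKM and called past 2-fold. TMM factors (edgeR 4.0.16) and DESeq2 1.42.0 size factors were computed in R 4.3.3 on rounded expected counts of genes with at least 10 counts. Python 3.11.15, pandas 2.3.3, numpy 2.4.6, scipy 1.17.1 and matplotlib 3.10.9 did the rest, and the steps were tested on simulated data. At this depth, 3 counts equal 0.0653 and 0.0616 CPM. The 10 genes and the lists were chosen with earlier results of these data known. From each list, genes past 2-fold were named and otherwise up to 3 with the largest ratio. CD38, HPF1, PARG, PARP2, SIRT7, ZC3HAV1 and the genes near 0 were added outside that rule, after their values were seen. So were ADPRHL2, CHD1L, LIG3, PARP4, SIRT2 and XRCC1.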

Additional observations from a re-analysis of the deposited data

How the results depend on the processing

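Over 9 alternatives, of which the TMM factors on FPKM were added after the data were seen, NADK2 was past 2-fold in 9 and NMNAT1 in 8, since it was below the filter of 5 FPKM. SIRT1 was past 2-fold in 5, and PARP1 was past it on the lower side in 4. The members more than 2-fold lower were 1 with TMM-scaled counts, with DESeq2 size factors, after centring and with TMM factors on FPKM. The genes of all kinds that were more than 2-fold higher were 1606 with a pseudocount of 1 FPKM, 4735 with no filter and 1256 with at least 5 FPKM, and those lower were 1897 with no filter, 603 with at least 5 FPKM and 1527 with TMM factors on FPKM, beside 2521 and 953. The other genes of NAD metabolism past 2-fold were 7 higher and 1 lower with at least 5 FPKM. Of 10480 genes of all kinds tested with that filter, 1256 were higher and 603 lower, and the 7 and 1 cannot be set apart from that background. With TMM-scaled counts and with DESeq2 size factors, 4 of the other genes of NAD metabolism were lower, of 45 tested. With those factors 1354 and 1386 of all 14859 genes were lower, so the 4 cannot be set apart from that background.

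The median of the NAD-making genes was 0.55 with at least 5 FPKM, 0.74 with TPM, 0.45 with TMM-scaled counts, 0.44 with DESeq2 size factors, 0.49 after centring and 0.44 with TMM factors on FPKM. That of the NAD-using genes went both ways, to 0.34 with TPM and 0.35 with CPM. It was 0.14 with TMM-scaled counts, 0.13 with DESeq2 size factors, 0.0944 after centring and 0.0399 with TMM factors on FPKM. The change of the summed NAD-making over the summed NAD-using values was 1.28 with CPM, TMM-scaled counts and DESeq2 size factors, which leave out length, and, chosen after the data were seen, 0.12 without PARP1 and 1.05 without NAMPT. These factors shift all genes together, and which scaling is nearer to the cells was not tested. No paired analysis was possible because each condition has a single library. Depth limits SIRT4, ADPRH, APLF, MACROD2 and NMNAT1, at 10, 59, 87, 110 and 138 counts without Dox, and NAPRT, at 68 with Dox.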
